A study of Mus musculus with 9 samples.

Results

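The genes described here are 9 genes of the complement system, namely C1qa, C1qb, C1qc, C2, C4b, C3, Cfb, C3ar1 and C5ar1. They were taken by gene symbol from a table of 21936 protein-coding genes, and all 9 were found in it. RNA had been sequenced from cells sorted as liver lymphatic endothelial cells from IL7-GFP knock-in reporter mice, in which green fluorescent protein marks the cells by way of the Il7 locus. The 3 groups, of 3 mice each per the series' design text, were mice at 4 weeks after bile duct ligation, mice at 2 weeks after bile duct ligation and mice that had undergone sham surgery. Bile duct ligation blocks the outflow of bile and is a surgical model of cholestasis. Every group carried the reporter allele, so no library comes from mice without it. The sources used here do not give the strain, age and sex of the mice, the sorting gate or the time between sham surgery and sampling.

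Complement is a cascade of plasma proteins that is started by C1q bound to antibody or to other ligands, by lectins bound to sugars, or by slow spontaneous activation of C3. Proteases of the cascade cut C4 and C2, then C3 and then C5. Fragments of C3 coat targets. The small peptides C3a, cut from C3, and C5a, cut from C5, signal through receptors on myeloid and other cells. Hepatocytes make most of the complement proteins of plasma, whereas C1q is made mainly by macrophages and dendritic cells, which in the liver include the resident macrophages called Kupffer cells.

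Values are normalized counts, that is reads per gene divided by 1 factor per library. Sham replicate 2 had 592419 reads on the genes of the table, against 2259239 to 5314381 in the other 8 libraries, and its correlation with them across genes was 0.741 to 0.828, against 0.855 to 0.957 among the other 8. The defining lymphatic transcription factor Prox1 averaged 1252 ± 700 normalized counts at 4 weeks, 1129 ± 477 at 2 weeks and 1420 ± 982 in sham (SD, n = 3 each). Both rows of Ccl21a, another lymphatic marker, were listed at 0 in every library from 4 and 2 weeks. In sham, 1 of these rows was also at 0 in every library. Of the 6 lymphatic endothelial markers tested, 5 had a log2 fold change above 0 at 4 weeks and at 2 weeks against sham. Prox1 was below 0, and none passed the threshold given below. Transcripts of macrophages and hepatocytes were also present. The macrophage gene Csf1r averaged 3776 ± 2131, 6853 ± 2084 and 6872 ± 2143 normalized counts and the hepatocyte gene Alb averaged 6019 ± 4955, 3867 ± 1651 and 4534 ± 3850, at 4 weeks, at 2 weeks and in sham in that order (SD, n = 3 each). In bulk RNA of this kind, fewer cells of a type and less RNA per cell cannot be told apart, and which cells in the sort the complement transcripts came from was not tested.

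C1qb, C1qa and C1qc, the genes of the 3 chains of C1q, were the most abundant of the 9 per length. Over the 9 libraries they averaged 3816 ± 1588, 2966 ± 1149 and 1923 ± 800 normalized counts per kilobase of exon (SD, n = 9). C3, the central component of the cascade, followed at 928 ± 531, and C4b, the mouse gene of C4, at 275 ± 132. The receptor genes C3ar1 and C5ar1 lay at 131 ± 29.7 and 128 ± 34.2 per kilobase. C2, the protease that joins C4b fragments, averaged 9.69 ± 6.30, and Cfb, its counterpart in the alternative pathway, 4.78 ± 3.06. The ranges over libraries overlapped for each pair of neighbours in this order except C5ar1 and C2, where the lowest C5ar1 value was 83.3 and the highest C2 value 21.7 per kilobase. The place of C1qc depended on the length used, since by its longest transcript it averaged 3087 per kilobase, above C1qa. The levels of C4b, C2 and Cfb are uncertain, since part of their sequence also occurs in other genes, as given below.

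**Figure D1:**
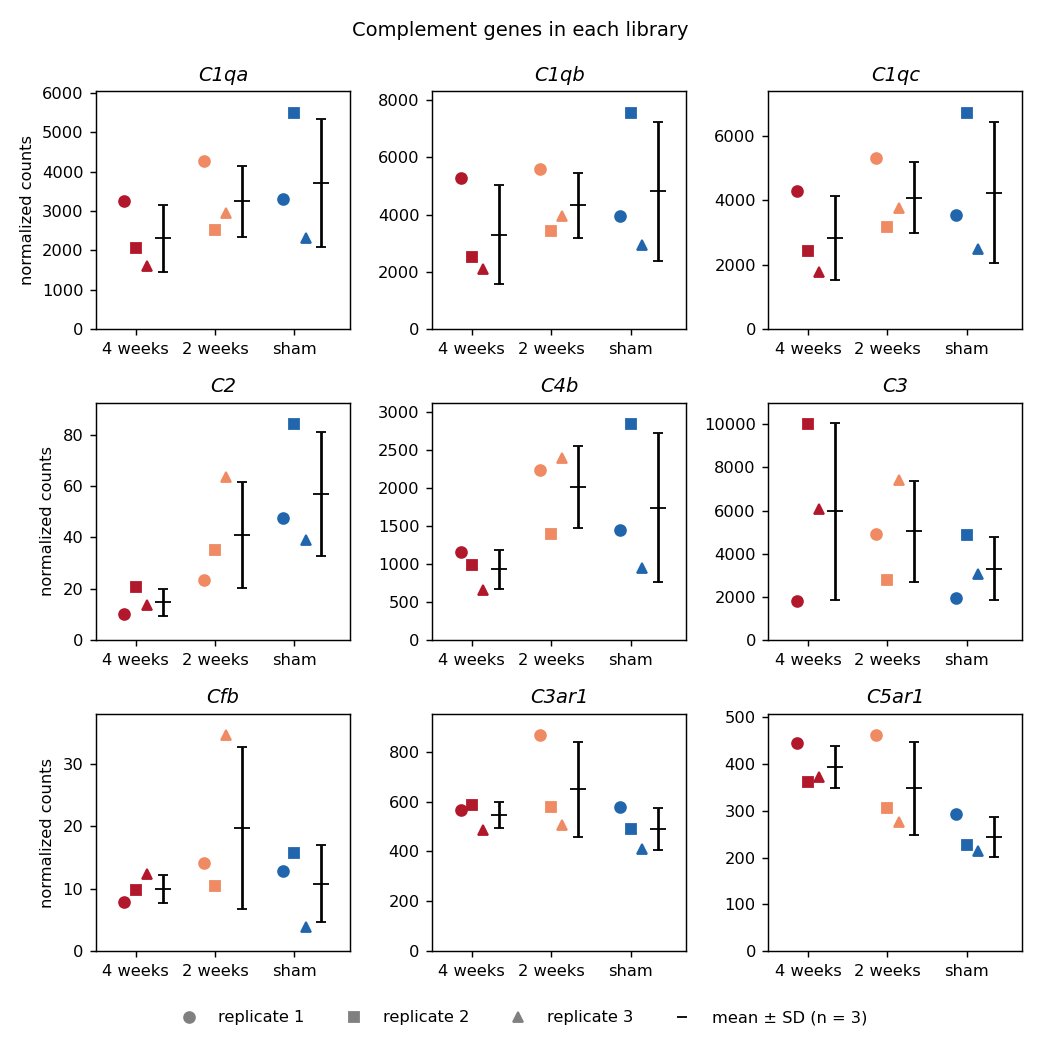
Normalized counts of the 9 complement genes in each library (linear axes starting at 0), with 4 weeks, 2 weeks and sham from left to right; symbols give the replicate number and bars the mean ± SD (n = 3). The C1q panels share 1 shape, C2 lies lowest at 4 weeks, and C3 spreads between 1816 and 10004 normalized counts within the 4-week group.

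The difference between groups was tested with limma across the 11809 genes whose mean level reached 10 normalized counts, and all 9 complement genes were among them. None of the 9 passed at an adjusted p below 0.05 at 4 weeks against sham, where 1.20% of all genes tested passed. At 2 weeks against sham none of the 9 passed either, against 0.0169% of all genes. Between 4 and 2 weeks neither the 9 nor any other gene passed (0%). At an unadjusted p below 0.05 there were 2 of the 9 at 4 weeks against sham (C2 and C5ar1; all genes 13.7%), 0 of 9 at 2 weeks against sham (all genes 8.55%) and 2 of 9 at 4 against 2 weeks (C2 and C4b; all genes 4.02%). On the reads recovered from the table, edgeR's quasi-likelihood test also called 0 of the 9 in each comparison (1.41%, 0.0169% and 0% of all genes at 4 weeks against sham, at 2 weeks against sham and at 4 against 2 weeks). DESeq2 called C2 at 4 weeks against sham and no other of the 9 in any comparison (4.85%, 1.79% and 0.644% of all genes in the same order). With library quality weights in limma, C2 and C3 passed at 4 weeks against sham (13.6% of all genes), none of the 9 at 2 weeks against sham (9.42%) and C4b at 4 against 2 weeks (2.96%). Libraries of the compared groups did not overlap for 0 of the 9 genes at 2 weeks against sham, beside 17.9% of all genes. The median log2 fold change of the 9 genes was −0.55 at 4 weeks against sham, 0.32 at 2 weeks against sham and −0.52 at 4 against 2 weeks, and that of all genes tested was 0.07, 0.07 and 0.01. In the same order, 4, 6 and 2 of the 9 were above 0, as were 6519, 6569 and 6169 of the 11809 genes tested. The C1q genes moved together across libraries, so the 9 genes are not independent and the medians do not describe a shift of the whole set.

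**Figure D2:**
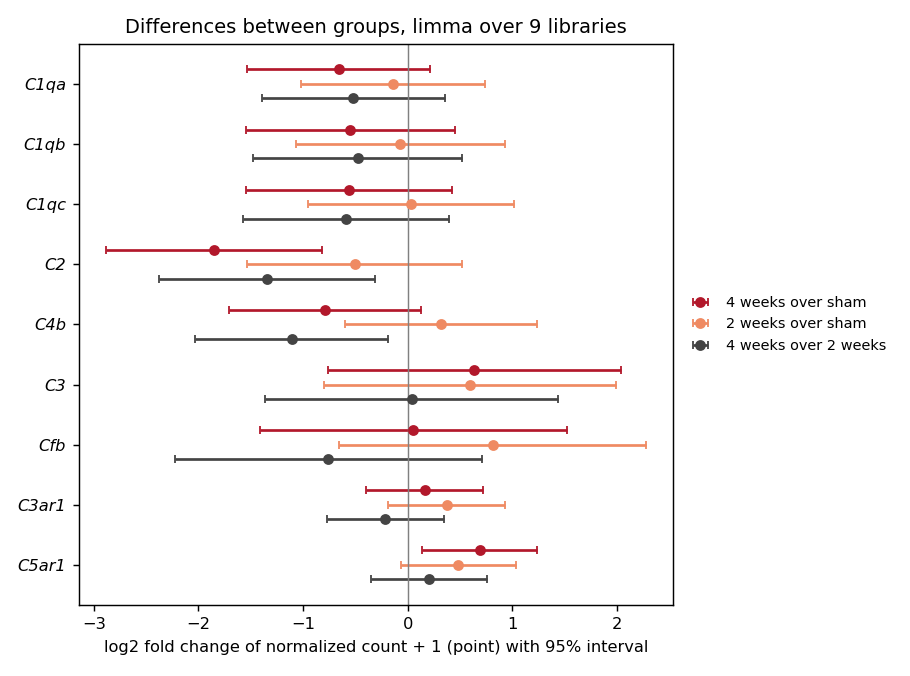
Log2 fold change of the 9 complement genes (points) with its 95% interval (bars) from limma over 9 libraries, for 4 weeks over sham, 2 weeks over sham and 4 over 2 weeks. The intervals of C2 and C5ar1 at 4 weeks over sham, and of C2 and C4b at 4 over 2 weeks, lie to 1 side of 0; none of these passed after adjustment over all genes.

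C1qa, C1qb and C1qc encode the A, B and C chains that assemble into the recognition molecule of the classical pathway. They lie next to each other on the minus strand of mouse chromosome 4 (GRCm38), C1qb at 136880129 to 136886187, C1qc at 136889804 to 136893065 and C1qa at 136895917 to 136898803. Their exons share no stretch of 50 bases, so their counts do not draw on the same reads. The windows around the transcription starts of C1qb and C1qc are printed because these genes moved together across libraries. They hold 250 bases before the start and 50 after it, 5′ to 3′, from RefSeq on GRCm38.p6. Capitals mark a match to GAGGAA, the core bound by PU.1 and related ETS factors of myeloid cells, or to its reverse complement.
C1qb (chr4:136886151-136886450, minus strand): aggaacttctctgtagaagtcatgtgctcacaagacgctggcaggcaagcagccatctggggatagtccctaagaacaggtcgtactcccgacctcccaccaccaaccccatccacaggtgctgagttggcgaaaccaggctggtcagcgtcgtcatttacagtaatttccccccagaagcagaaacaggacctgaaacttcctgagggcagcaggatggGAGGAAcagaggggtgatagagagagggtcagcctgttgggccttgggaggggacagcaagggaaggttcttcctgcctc
C1qc (chr4:136892865-136893164, minus strand): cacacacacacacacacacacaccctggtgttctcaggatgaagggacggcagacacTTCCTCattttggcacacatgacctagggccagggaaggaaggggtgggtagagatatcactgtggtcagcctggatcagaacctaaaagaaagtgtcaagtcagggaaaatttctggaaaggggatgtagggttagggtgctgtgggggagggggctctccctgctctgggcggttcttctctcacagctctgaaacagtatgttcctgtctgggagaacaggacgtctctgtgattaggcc
Each window held 1 such match, and 28.3% of 32851 windows of the same kind in the table hold GAGGAA on either strand, so the match is a description only. Of the 9 genes, C1qb, C1qc, C3, C3ar1 and C5ar1 had a window in the table, and C1qa, C2, C4b and Cfb had none.

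C1qb had 5286, 2526 and 2108 normalized counts at 4 weeks, 5611, 3429 and 3947 at 2 weeks and 3964, 7555 and 2936 in sham. C1qa had 3255, 2059 and 1598 at 4 weeks, 4259, 2507 and 2958 at 2 weeks and 3310, 5489 and 2323 in sham. C1qc had 4272, 2422 and 1779 at 4 weeks, 5304, 3164 and 3768 at 2 weeks and 3538, 6703 and 2470 in sham. In each of the 3 genes the highest library was the shallow sham replicate 2, replicate 1 was the highest library of both ligated groups, and the groups overlapped in all pairs. The log2 fold changes at 4 weeks against sham were −0.66 ± 0.39 for C1qa, −0.55 ± 0.45 for C1qb and −0.56 ± 0.44 for C1qc (SE; limma, adjusted p = 0.502, 0.629 and 0.616). Without sham replicate 2 they were −0.33, −0.17 and −0.16. At 2 weeks against sham they were −0.14, −0.07 and 0.04, with adjusted p between 0.927 and 0.983, and the 95% interval for C1qb ran from −1.07 to 0.93.

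Within a library the 3 chains kept close to 1 proportion. The ratio of C1qb to C1qa was 1.62, 1.23 and 1.32 at 4 weeks, 1.32, 1.37 and 1.33 at 2 weeks and 1.20, 1.38 and 1.26 in sham. Its coefficient of variation over the 9 libraries was 9.26%, against 38.8% for C1qa and 41.6% for C1qb themselves. The pairwise correlation of the 3 genes on the log2 scale was 0.978 to 0.989 over 9 libraries and 0.964 to 0.982 over the 8 without sham replicate 2. These and the other correlations across libraries are descriptions of libraries that also differ in depth and in cell content.

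The C1q genes followed Csf1r, the receptor that macrophages depend on, more closely than Clec4f, a lectin specific to Kupffer cells. C1qb correlated with Csf1r at r = 0.90 over 9 libraries (0.92 over 8), with Clec4f at 0.72 (0.63) and with Prox1 at −0.87 (−0.77). The ratio of C1qb to Csf1r was 0.848, 0.939 and 0.876 at 4 weeks, 0.633, 0.729 and 0.565 at 2 weeks and 0.531, 0.872 and 0.653 in sham, so 4 weeks overlapped with sham and lay above 2 weeks. In contrast, the ratio of C1qb to Clec4f was 3.05, 2.38 and 3.95 at 4 weeks, 0.472, 1.0004 and 1.07 at 2 weeks and 0.395, 0.549 and 0.429 in sham. Every 4-week library lay above every other library in this ratio.

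The same held for Timd4, a receptor of long-lived resident Kupffer cells. Its ratio (C1qb over Timd4) was 37.6, 38.6 and 51.9 at 4 weeks, 4.44, 6.24 and 3.43 at 2 weeks and 3.65, 3.57 and 4.03 in sham. Clec4f averaged 1110 ± 601 normalized counts at 4 weeks, 6335 ± 4803 at 2 weeks and 10215 ± 3463 in sham, and Timd4 averaged 82.2 ± 52.0, 987 ± 384 and 1312 ± 721 in the same order (SD, n = 3 each). In both genes the 4-week libraries lay below all others, at 534 to 1733 and 40.6 to 141 normalized counts, unlike the C1q genes, whose groups overlapped. Vsig4, a complement receptor of Kupffer cells that binds C3b, averaged 1072 ± 724 at 4 weeks, 2401 ± 969 at 2 weeks and 1981 ± 817 in sham, and C1qb over Vsig4 overlapped between 4 weeks and sham. The ratios were chosen after their values were seen and carry no test.

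**Figure D3:**
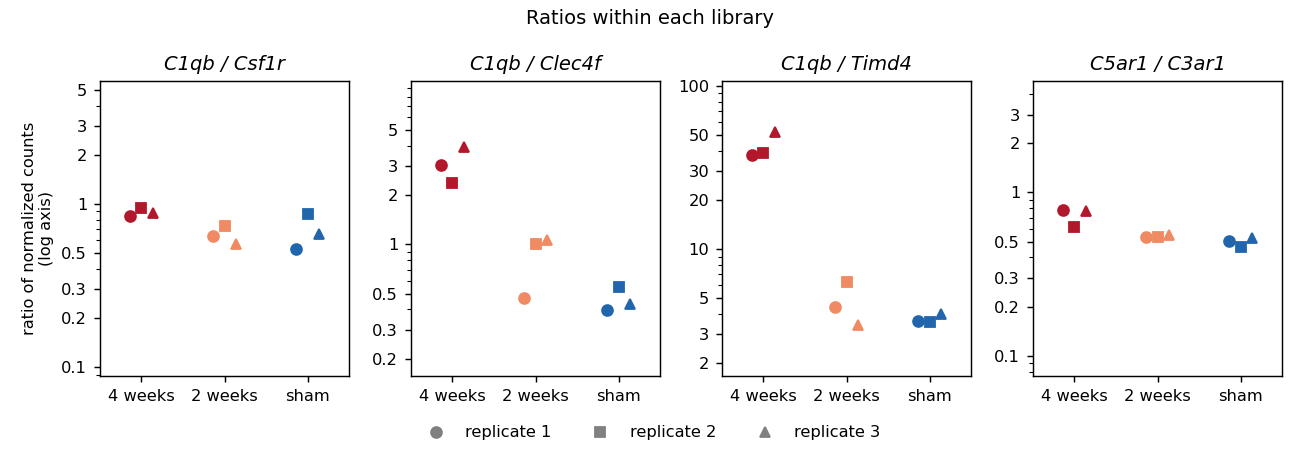
Ratios of normalized counts within each library (log axes), with 4 weeks, 2 weeks and sham from left to right and symbols for the replicate number. C1qb over Clec4f (2.38 to 3.95 at 4 weeks) and C1qb over Timd4 (37.6 to 51.9) lie above every other library at 4 weeks, C1qb over Csf1r overlaps between 4 weeks and sham, and C5ar1 over C3ar1 is highest at 4 weeks.

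Recruited macrophages are the other macrophage population of the injured liver. Their marker Gpnmb, a gene of lipid-laden and scar-associated macrophages, averaged 6164 ± 2382 normalized counts at 4 weeks, 2491 ± 1167 at 2 weeks and 478 ± 433 in sham (SD, n = 3 each), and its groups did not overlap. The monocyte receptor Ccr2 averaged 26.9 ± 21.6, 25.1 ± 3.96 and 18.1 ± 15.8 in that order, with overlapping groups. Other genes of the same list had the opposite sign: the log2 fold change at 4 weeks against sham was −0.40 ± 0.50 for Spp1 and −0.97 ± 0.96 for Plac8 (SE; limma, adjusted p = 0.760 and 0.696). Spp1 is also in the list of 6 cholangiocyte markers. Of these, 5 had a log2 fold change below 0 at 4 weeks and at 2 weeks against sham, and none passed. Of the 8 monocyte and recruited macrophage markers tested, 6 had a fold change above 0 at 4 weeks against sham, and 1 passed (Itgam). At 2 weeks 7 of these 8 were above 0 and none passed. Over the list of 11 macrophage and Kupffer cell markers, none of them at 0 in any group, the mean log2 level was 9.29 to 10.6 at 4 weeks, 10.8 to 11.8 at 2 weeks and 10.6 to 11.8 in sham. Among these 11, 10 had a fold change below 0 at 4 weeks against sham, and 2 of them passed (Clec4f and Timd4). At 2 weeks against sham 5 were below 0 and none passed. Over the 9 monocyte and recruited macrophage markers it was 7.84 to 8.17 at 4 weeks, 7.602 to 8.01 at 2 weeks and 5.90 to 6.94 in sham, where Ly6c2 was at 0 in all 3 libraries. The part of these shifts in the C1q levels was not tested.

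C4b and C2 supply the next step of the classical and lectin pathways, in which the C4b fragment binds C2 to form the protease that cuts C3. Both lie on the minus strand of chromosome 17 in the major histocompatibility complex, C4b at 34728380 to 34743882 and C2 at 34862604 to 34898265. C4b had 1160, 984 and 656 normalized counts at 4 weeks, 2235, 1401 and 2404 at 2 weeks and 1445, 2844 and 949 in sham. Every 4-week library was below every 2-week library, while 4 weeks and sham overlapped. The log2 fold change was −1.11 ± 0.41 at 4 against 2 weeks (SE; limma, unadjusted p = 0.0228, adjusted p = 0.999993), −0.79 ± 0.41 at 4 weeks against sham (adjusted p = 0.436) and 0.32 ± 0.41 at 2 weeks against sham (adjusted p = 0.841). Without sham replicate 2 the second of these was −0.37 and the third 0.74.

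C2 had low counts and was lowest at 4 weeks. It had 10.2, 20.6 and 13.5 normalized counts at 4 weeks (13, 23 and 11 reads), 23.6, 35.3 and 63.6 at 2 weeks (40, 54 and 94 reads) and 47.7, 84.1 and 38.9 in sham (52, 16 and 50 reads). The 4-week libraries lay below all others, and 2 weeks overlapped with sham. The log2 fold change at 4 weeks against sham was −1.85 ± 0.46 (SE; limma, unadjusted p = 0.00257, adjusted p = 0.0926), the largest in size of the 9 genes, and DESeq2 on the reads gave −1.88 with an adjusted p of 0.0169. At 4 against 2 weeks it was −1.34 ± 0.46 (unadjusted p = 0.0159, adjusted p = 0.927). Without sham replicate 2, whose value rests on 16 reads, the 4-week difference from sham was −1.54. Groups without overlap and lower at 4 weeks were found for 1 of the 9 genes against sham (C2; 8.39% of all genes tested) and for 2 of the 9 against 2 weeks (C4b and C2; 5.06% of all genes).

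C4b moved with the C1q genes and with Csf1r across libraries, with r = 0.89 to C1qc and 0.86 to Csf1r (0.85 and 0.85 over 8 libraries). The ratio of C4b to Csf1r was 0.186, 0.366 and 0.272 at 4 weeks, 0.252, 0.298 and 0.344 at 2 weeks and 0.194, 0.328 and 0.211 in sham, and overlapped in every pair of groups. C2 correlated with Csf1r at 0.52 and with C5ar1 at −0.81 (0.40 and −0.75 over 8 libraries). Markers of macrophages did not move with C2 as a whole, with r = 0.71 for Clec4f, 0.04 for Cd68 and −0.61 for Lyz2 (0.62, −0.58 and −0.56 over 8 libraries). The part of macrophage RNA in the levels of C4b and C2 was not tested. Some reads of C4b and C2 cannot be assigned to 1 gene. Of the stretches of 50 bases in C4b, 34.6% also occur in C4a, its near copy, which was not analysed here. The same share between C2 and Gm20547, a readthrough gene over Cfb and C2 with 0 reads in all 9 libraries, was 38.7%. The levels of C4b and C2 are therefore uncertain. Zbtb12 lies within C2 on the other strand and had 104 reads in all, and the sources used here do not say whether counting used strand.

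C3 is the component on which all 3 routes converge, and hepatocytes are its main source. It lies on chromosome 17 at 57203970 to 57228136, minus strand. The window around its start is printed for comparison with those of C1qb and C1qc, with capitals on a match to TTGCNNAA, a motif of the C/EBP factors that drive acute-phase genes.
C3 (chr17:57228087-57228386, minus strand): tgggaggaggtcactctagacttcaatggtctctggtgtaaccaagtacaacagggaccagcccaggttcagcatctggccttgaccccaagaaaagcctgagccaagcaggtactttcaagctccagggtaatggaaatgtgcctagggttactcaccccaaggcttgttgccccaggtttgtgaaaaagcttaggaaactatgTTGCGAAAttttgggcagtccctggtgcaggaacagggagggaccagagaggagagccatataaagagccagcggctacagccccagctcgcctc
The window held 1 match, as did 10.8% of all windows in the table on either strand, and it held no GAGGAA. Neither C1q window held TTGCNNAA. The windows of C3ar1 and C5ar1 held neither motif. Both strands were searched, and no matches overlapped.

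C3 had 1816, 10004 and 6086 normalized counts at 4 weeks, 4897, 2789 and 7438 at 2 weeks and 1975, 4868 and 3059 in sham. The 4-week group held both the highest and the lowest library of all 9. The log2 fold change was 0.64 ± 0.63 at 4 weeks and 0.60 ± 0.63 at 2 weeks against sham (SE; limma, adjusted p = 0.696 and 0.802), and the 95% interval at 4 weeks ran from −0.76 to 2.04. Without 4-week replicate 1 the 4-week value was 1.34 (adjusted p = 0.272), and without sham replicate 2 it was 0.97.

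The spread of C3 followed that of the hepatocyte gene Alb, with r = 0.90 over 9 libraries (0.92 over 8), against −0.38 with Csf1r and −0.20 to −0.30 with the C1q genes. Alb had 599, 10318 and 7139 normalized counts at 4 weeks, 4566, 1981 and 5054 at 2 weeks and 707, 8406 and 4489 in sham. The libraries lowest in Alb, 4-week replicate 1 and sham replicate 1, were also those lowest in C3. The ratio of C3 to Alb was 3.03, 0.970 and 0.852 at 4 weeks, 1.07, 1.41 and 1.47 at 2 weeks and 2.79, 0.579 and 0.681 in sham, so it was highest in those same libraries and the groups overlapped. Over the 7 hepatocyte markers, none at 0 in any group, the mean log2 level was 6.16 to 9.36 at 4 weeks, 7.20 to 8.68 at 2 weeks and 6.07 to 9.61 in sham. Against sham, 5 of the 7 had a log2 fold change above 0 at 4 weeks and at 2 weeks. The other 2, Cyp2e1 and Ttr, were below 0, and none of the 7 passed. The part of hepatocyte RNA in the C3 level was not tested.

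**Figure D4:**
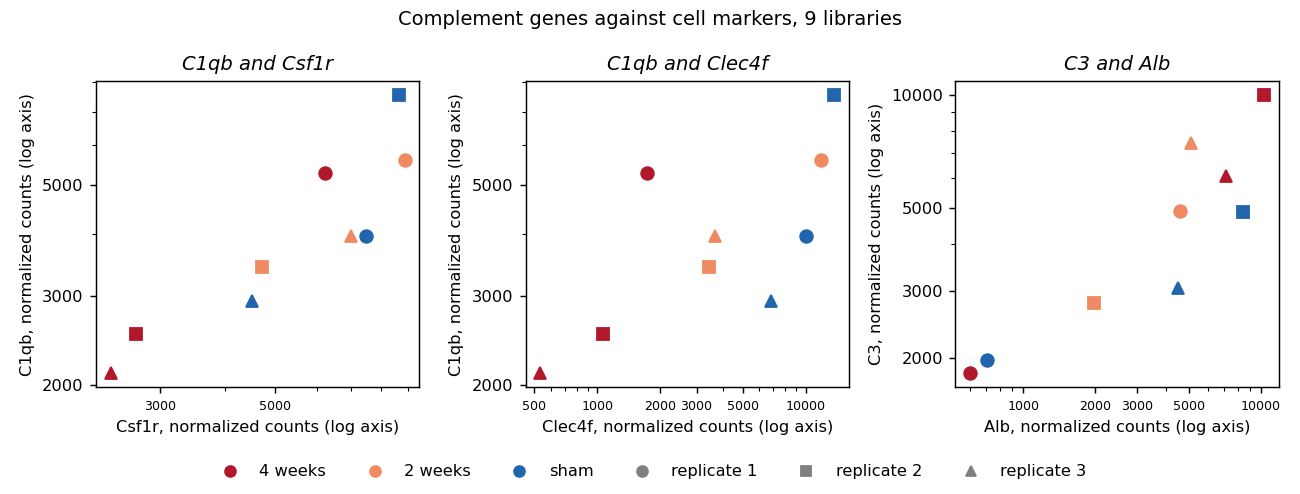
Normalized counts of C1qb against Csf1r, C1qb against Clec4f and C3 against Alb in the 9 libraries (log axes on both sides), with colours for 4 weeks, 2 weeks and sham and symbols for the replicate number. C1qb tracks Csf1r (r = 0.90), the 4-week libraries lie to the left in Clec4f, and C3 tracks Alb (r = 0.90), with replicate 1 of the 4-week and sham groups lowest in both genes.

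Cfb, factor B, takes the place of C2 in the alternative pathway and lies directly beside it on chromosome 17 at 34856374 to 34862518. It had 7.85, 9.85 and 12.3 normalized counts at 4 weeks, 14.1, 10.5 and 34.5 at 2 weeks and 12.8, 15.8 and 3.89 in sham, from 10, 11 and 10 reads, 24, 16 and 51 reads and 14, 3 and 5 reads. The groups overlapped in every pair. Its log2 fold change was 0.06 ± 0.66 at 4 weeks and 0.81 ± 0.66 at 2 weeks against sham (SE; limma, adjusted p = 0.977 and 0.737), with a 95% interval at 4 weeks of −1.41 to 1.52. In sham replicate 2 the value rested on 3 reads, the number that a count of 0 allows. Of its stretches of 50 bases 73% also occur in Gm20547, so its level is uncertain.

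C3ar1 and C5ar1 encode the receptors for C3a and C5a, which draw in and activate myeloid cells. C3ar1 lies on chromosome 6 at 122847138 to 122856161 and C5ar1 on chromosome 7 at 16246743 to 16259540, both on the minus strand. C5ar1 had 444, 361 and 373 normalized counts at 4 weeks, 461, 306 and 275 at 2 weeks and 293, 226 and 214 in sham. All 4-week libraries lay above all sham libraries, and 2 weeks overlapped with both. The log2 fold change of C5ar1 was 0.69 ± 0.25 at 4 weeks against sham (SE; limma, 95% interval 0.14 to 1.24, unadjusted p = 0.0192, adjusted p = 0.250) and 0.48 ± 0.25 at 2 weeks (adjusted p = 0.604). C5ar1 was the 1 gene of the 9 that was higher at 4 weeks than in sham with no overlap, as were 8.60% of all genes tested.

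C3ar1 had 567, 587 and 487 normalized counts at 4 weeks, 865, 577 and 505 at 2 weeks and 577, 489 and 409 in sham. Its groups overlapped in every pair, and its log2 fold change was 0.16 ± 0.25 at 4 weeks and 0.38 ± 0.25 at 2 weeks against sham (SE; limma, adjusted p = 0.809 and 0.687). Within libraries, C5ar1 over C3ar1 was 0.783, 0.614 and 0.765 at 4 weeks, 0.533, 0.531 and 0.546 at 2 weeks and 0.507, 0.462 and 0.524 in sham. The groups did not overlap in any pair for this ratio, which was chosen after the values were seen and not tested. Per kilobase, C5ar1 averaged 153 ± 17.4 and C3ar1 127 ± 12.3 at 4 weeks, whereas in sham C5ar1 averaged 95.04 ± 16.4 and C3ar1 114 ± 19.5 (SD, n = 3 each), with overlapping ranges in sham.

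Relative to Csf1r the receptor C5ar1 was higher at 4 weeks, with ratios of 0.0712, 0.134 and 0.155 at 4 weeks, 0.0520, 0.0651 and 0.0394 at 2 weeks and 0.0392, 0.0261 and 0.0476 in sham. The 4-week libraries lay above all others. C3ar1 over Csf1r was 0.09095, 0.218 and 0.202 at 4 weeks, 0.0976, 0.123 and 0.0723 at 2 weeks and 0.0773, 0.0565 and 0.09096 in sham. Its groups overlapped, between 4 weeks and sham in 1 library of each. Csf1r itself had a log2 fold change of −0.95 ± 0.44 at 4 weeks against sham (SE, limma adjusted p = 0.384), so a higher ratio to it is not particular to C5ar1. C5ar1 correlated with Lyz2, a lysozyme gene of myeloid cells, at r = 0.82 and with C3ar1 at 0.74 (0.81 and 0.74 over 8 libraries), but with Csf1r at −0.13 (0.06). With Clec4f it correlated at −0.43 (−0.28) and with Cd68 at 0.20 (0.84), so the value for Cd68 depended on sham replicate 2. Lyz2 averaged 7392 ± 1896 normalized counts at 4 weeks, 6194 ± 1926 at 2 weeks and 5379 ± 993 in sham (SD, n = 3 each). It was the 1 gene of the 11 macrophage and Kupffer cell markers with a log2 fold change above 0 at 4 weeks against sham. The other 10 were below 0. Of the recruited macrophage markers, Gpnmb was also higher at 4 weeks than in sham without overlap, while Ccr2 overlapped and Spp1 and Plac8 had a log2 fold change below 0. Their part in the C5ar1 level was not tested, nor was that of neutrophils, whose markers are given below.

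Of 51 other genes of the complement pathway, 50 had rows in the table and 41 were tested. At 4 weeks against sham 2 of the 41 rose and none fell, beside 0.533% and 0.669% of all genes tested, and their median log2 fold change was 0.24. None of the 41 passed in limma at 2 weeks against sham or at 4 against 2 weeks, where 4 of the 41 (all genes 8.55%) and 5 of the 41 (all genes 4.02%) had an unadjusted p below 0.05. There, edgeR called 0 in both comparisons (0.0169% and 0% of all genes). DESeq2 called 1 at 2 weeks against sham (Itgam; all genes 1.79%) and 2 at 4 against 2 weeks (C6 and Cd93; all genes 0.644%). The 2 that rose at 4 weeks are both receptors.

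Itgam, the alpha chain of complement receptor 3, which takes up particles coated with C3 fragments, had 741, 288 and 405 normalized counts at 4 weeks, 412, 250 and 548 at 2 weeks and 66.03, 68.3 and 45.2 in sham. Both ligated groups lay above sham without overlap. Its log2 fold change at 4 weeks against sham was 2.89 ± 0.39 (SE; limma, adjusted p = 0.0114), and at 2 weeks it was 2.68 ± 0.39 and did not pass (adjusted p = 0.0700). Itgam is also a monocyte marker. The marker list that contains it was higher in both ligated groups, but the mean of that list includes Itgam itself. Of the 4 neutrophil markers tested, 3 had a log2 fold change above 0 at 4 weeks against sham, and Csf3r was below 0. Mmp8 was the 1 that passed (4.39, limma adjusted p = 0.0188), with 48, 33 and 45 reads at 4 weeks and 2, 0 and 2 in sham. At 2 weeks against sham all 4 were above 0 and none passed. Cd93, a receptor of endothelial and myeloid cells once described as a C1q receptor, had 1836, 1393 and 1723 at 4 weeks, 741, 754 and 438 at 2 weeks and 373, 131 and 316 in sham. Each group stood above the next without overlap, and the log2 fold change at 4 weeks against sham was 2.71 ± 0.39 (SE; limma, adjusted p = 0.0147). Without 4-week replicate 3 neither passed, with adjusted p = 0.0614 for Itgam and 0.0802 for Cd93. None of the 8 stellate and fibroblast markers passed, but their mean level was higher in the same groups. On the log2 scale it was 6.63 to 8.04 at 4 weeks, 6.86 to 7.93 at 2 weeks and 5.32 to 6.38 in sham, and none was at 0 in any group. The mean of the 5 pan-endothelial markers was 9.30 to 10.2, 9.47 to 10.4 and 8.79 to 10.8 in the same order. For the 6 sinusoidal endothelial markers it was 7.69 to 8.26, 7.15 to 7.48 and 7.43 to 8.08. For the 7 lymphatic endothelial markers it was 8.07 to 8.96, 7.82 to 8.93 and 6.74 to 8.74. Of the 6 sinusoidal markers, 5 had a log2 fold change above 0 at 4 weeks against sham, and Stab2 was below 0. Fcgr2b was the 1 that passed (1.69, limma adjusted p = 0.0283), without overlap between these groups. At 2 weeks against sham 3 of the 6 were above 0 and none passed. The part of any of these cell types in the levels of Itgam and Cd93 was not tested.

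The remaining genes with the highest levels per class did not pass. In the classical pathway the C1r protease gene C1ra averaged 98.3 ± 30.0 normalized counts at 4 weeks, 134 ± 17.1 at 2 weeks and 111 ± 6.87 in sham, and the C1s gene C1s1 113 ± 61.2, 82.8 ± 25.1 and 44.6 ± 26.9 (SD, n = 3 each). C1rb stayed at a mean of 2.68 to 5.15 in the 3 groups and was not tested. Among lectin pathway genes the ficolin gene Fcna averaged 673 ± 538 at 4 weeks, 1802 ± 1139 at 2 weeks and 1967 ± 696 in sham, with a log2 fold change at 4 weeks against sham of −1.76 ± 0.58 (SE; limma, adjusted p = 0.214). The alternative pathway stabiliser properdin, Cfp, averaged 1009 ± 713, 1752 ± 434 and 1674 ± 919 in that order. Of the terminal components, C6 averaged 256 ± 178 at 4 weeks, 1449 ± 658 at 2 weeks and 1225 ± 425 in sham (log2 fold change at 4 weeks against sham −2.44 ± 0.53 SE, limma adjusted p = 0.0603). All 3 C6 values at 4 weeks, 454, 206 and 108, lay below those of the other groups, and DESeq2 called C6 at 4 weeks against sham and against 2 weeks. The chaperone Clu, which blocks the terminal complex, averaged 946 ± 656 at 4 weeks, 917 ± 277 at 2 weeks and 2597 ± 813 in sham (log2 fold change at 4 weeks against sham −1.76 ± 0.60 SE, limma adjusted p = 0.228). The chaperone Calr, which binds C1q at the cell surface, averaged 2156 ± 291 at 4 weeks, 1803 ± 568 at 2 weeks and 2842 ± 327 in sham, and Serping1, the gene of the C1 inhibitor, 475 ± 262, 411 ± 107 and 273 ± 33.1 in that order. Cd55, a membrane protein that speeds the decay of C3 convertases, averaged 376 ± 114, 505 ± 350.0 and 252 ± 26.4 in that order. Hc, the mouse gene of C5, averaged 145 ± 111 at 4 weeks, 78.1 ± 41.5 at 2 weeks and 122 ± 117 in sham. The scavenger receptor Lrp1 averaged 9744 ± 5077 at 4 weeks, 9920 ± 3206 at 2 weeks and 5253 ± 1562 in sham (log2 fold change at 4 weeks against sham 0.82 ± 0.43 SE, limma adjusted p = 0.442).

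**Figure D5:**
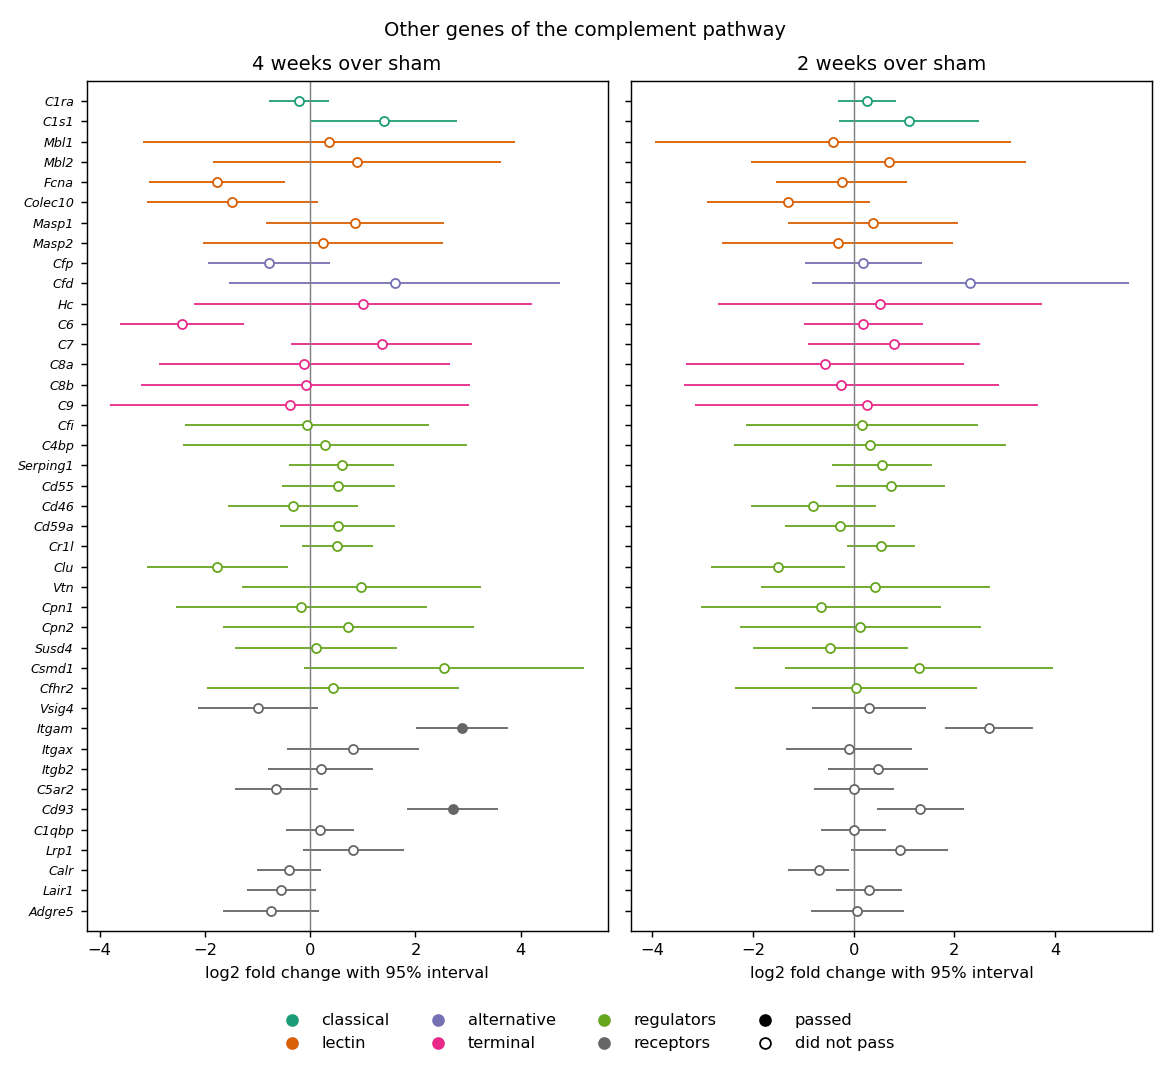
Log2 fold change (points) with 95% interval (bars) of the 41 other complement genes tested, at 4 weeks over sham and at 2 weeks over sham, coloured by class; filled points passed at an adjusted p below 0.05. Itgam and Cd93 are the filled points, both at 4 weeks, and the intervals of the genes with low levels are wide.

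The genes most like each of the 9 in pattern were sought among 7676 genes whose mean level reached 50 normalized counts, by Pearson correlation of log2 levels over the 9 libraries. For C1qb they were Csf2ra (r = 0.99), Zfp385a (0.98) and Mapre2 (0.98), for C1qa Rbm17 (0.98), Hcls1 (0.97) and Ctsc (0.97), and for C1qc Csf2ra (0.98), Ctsh (0.98) and Zfp385a (0.98). Without sham replicate 2 Csf2ra again headed the order for C1qb (0.99) but was at rank 8 for C1qc, and the 3 genes of C1qa were at ranks 9, 23 and 21. The nearest to C3 were Pcx (0.97), Ahcy (0.95) and Saa1 (0.95), and to C4b Tbc1d13 (0.96), Adap1 (0.96) and Gbgt1 (0.96). C2 was nearest to Iigp1 (0.96), Pdxdc1 (0.93) and Pdk2 (0.93). C5ar1 was nearest to Trem2 (0.94), St6gal1 (0.93) and Ecm1 (0.93), and C3ar1 to Ap1b1 (0.90), Necap2 (0.90) and Srp72 (0.86). Cfb was nearest to Muc6 (0.87), Erlin1 (0.79) and Cxcl13 (0.77). Without sham replicate 2, the shallow library, 9 of these 27 places stayed among the nearest 3 of their gene and 18 did not, with ranks down to 25.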

How the data were processed

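Per the labels' protocols, sorted cells went into TRIzol and libraries followed depletion of ribosomal RNA. The submitters' processing notes name Trim Galore (0.5.0), HISAT2 (2.1.0), StringTie (1.3.3b), DESeq2 (1.22.1) and build mm10, without order or settings. The authors deposited a signal of gene counts, each library divided by its own factor. Dividing each column by its lowest value above 0 gave whole numbers for 100.0% of 197424 values (tolerance 0.001), so reads could be recovered.

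Differences were tested in limma (3.58.1; R 4.3.3), on log2 of normalized count + 1, with 3 group means over 9 libraries and 6 residual degrees of freedom, moderation with a trend, two-sided p and Benjamini-Hochberg adjustment over 11809 genes; 10127 lay below a mean of 10. Fold changes on this scale understate those of low genes. Alternatives were other pseudocounts, filters, TMM scaling, only the 2 groups compared, the replicate number as a block, library quality weights, edgeR 4.0.16 and DESeq2 1.42.0 on reads, and left-out libraries. The procedure was tested on simulated counts. Replicate pairs differed beyond sampling noise (chi-square per degree of freedom 6.68 to 45.9). The 3 reads that a count of 0 allows were worth 15.8 normalized counts in sham replicate 2 and 1.77 to 3.69 elsewhere, counting error only.

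Positions and exon lengths came from GENCODE M21 (GRCm38) and start windows from RefSeq. Named genes were the 9 genes, other complement genes that passed, those with the highest mean per class (up to 3) and the 3 most similar genes to each of the 9. The ratios, Lyz2, and which of the genes with the highest means are given with a fold change were chosen after values were seen. The 9 genes and all lists were chosen with earlier results of these data known. Of the complement pathway, 1 gene is not reported here.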

Additional observations from a re-analysis of the deposited data

How the results depend on the processing

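None of the 9 complement genes passed in any fit that left out 1 library. With library quality weights 2 of the 9 passed in limma at 4 weeks against sham, C2 (−1.47, adjusted p = 0.0276) and C3 (1.70, adjusted p = 0.0296), and 1 at 4 against 2 weeks, C4b (−1.29, adjusted p = 0.0335); DESeq2 called 1 at 4 weeks against sham (C2). The cause was not tested. Over all alternatives adjusted p at 4 weeks ran from 0.0169 to 0.245 for C2 and from 0.0296 to 0.965 for C3.

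Genes passing at 2 weeks against sham numbered 2, against 1 with only those groups, 1112 with weights, 211 in DESeq2 and 178 without sham replicate 2 and 4-week replicate 1 together; without 1 library they numbered 0 to 14. At 4 weeks against sham they numbered 142, against 55, 1608, 573 and 467 in the same order and 84 with the replicate block. Without 1 library they numbered 9 (without 4-week replicate 3) to 173 (without sham replicate 2), with 38 without 4-week replicate 2, 74 without 2-week replicate 3, 70 without sham replicate 1 and 68 without sham replicate 3. Between 4 and 2 weeks there were 0, against 1 at a mean of at least 50, 349 with weights, 76 in DESeq2, 203 without both libraries and 0 to 2 without 1. Other complement genes numbered 0 at 2 weeks, against 4 with weights, 1 in DESeq2, 1 without both libraries and 0 to 1 without 1. At 4 weeks they numbered 2, against 16 with weights, 5 without both and 0 (without 4-week replicate 3) to 3 without 1, and at 4 against 2 weeks 0, against 6 with weights, 2 in DESeq2 and 3 without both.

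Signs turned for these genes, never past the threshold. At 2 weeks against sham, leaving out 1 library gave −0.43 to 0.19 for C1qa, −0.37 to 0.31 for C1qb, −0.29 to 0.43 for C1qc and −0.049 to 0.74 for C4b. Without both libraries C1qa was 0.19 and C1qb 0.31; C1qb was 0.081 with weights, and C1qc −0.077 in edgeR and −0.082 in DESeq2. At 4 weeks against sham C3ar1 was −0.0041 with weights, and Cfb ran from −0.49 to 0.40 without 1 library. At 4 against 2 weeks C3 ran from −0.49 to 0.74 and C3ar1 from −0.37 to 0.015 without 1 library. Deviations of same-numbered libraries correlated at −0.445 to 0.228, so the numbers were not taken to pair the samples. The replicate block gave 2, 84 and 0 calls over all genes. A mean of at least 50 left out C2 and Cfb. The depth of sham replicate 2 limits genes of few reads, C2 and Cfb among them.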

Other observations

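Across the 9 libraries 21 of the 41 other complement genes tested followed 1 of 3 cell markers and 20 followed none of them, given here as a description without a test. Of the 41, 14 correlated with the hepatocyte gene Alb at r of at least 0.8 on the log2 scale, both over 9 libraries and without sham replicate 2, as did 2.52% of all genes tested. They include the regulators C4bp (0.995), Cfi (0.986) and Vtn (0.95), the lectin Mbl1 (0.97), and the terminal components C9 (0.96) and Hc (0.93), the mouse gene of C5. The macrophage gene Csf1r was followed at this level by 6 (all genes 4.08%), namely Adgre5 (0.98), Vsig4 (0.98), Fcna (0.98), Cfp (0.96), C6 (0.93) and Lair1 (0.81). The lymphatic gene Prox1 was followed by 1 (all genes 5.9%), Susd4 (0.93), which encodes a complement inhibitor. These genes share libraries that differ in depth and cell content.

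Of these, C6 was set against C1qb within libraries. The same ratio was not taken for Adgre5, Fcna, Cfp and Lair1, so its pattern cannot be called particular to C6. The ratio of C6 to C1qb was 0.0858, 0.0815 and 0.0514 at 4 weeks, 0.376, 0.232 and 0.364 at 2 weeks and 0.300, 0.221 and 0.279 in sham, with 4 weeks below all other libraries, while the ratio of C6 to the Kupffer cell gene Clec4f was 0.262, 0.194 and 0.203 at 4 weeks, 0.178, 0.232 and 0.389 at 2 weeks and 0.119, 0.121 and 0.119 in sham.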
